A study of Homo sapiens with 36 samples.

Results

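The non-coding small nucleolar RNA (snoRNA) host genes of HMC3 cells were followed through exposure to perfluorooctanesulfonate (PFOS), a persistent fluorinated surfactant. The members were taken by gene symbol from the table of RNA-seq counts: every symbol made of SNHG and a number, which gave 18 genes, plus GAS5, EPB41L4A-AS1 and ZFAS1, in all 21 of the 25344 genes listed. Members were chosen by symbol and by no threshold on a value, but the set was proposed with earlier fold changes and counts of these data known, so its counts describe the set and are no independent evidence of a direction. HMC3 is an immortalised human microglial line. Cells received 25 or 50 µM PFOS, or the vehicle alone, for 24 h. They were harvested either directly or following 24 h of recovery. Each of the 6 combinations of dose and time had 3 poly(A)-selected RNA-seq libraries, 18 in all. The labels call them biological replicates without naming separate cultures, so p-values measure only the spread between these libraries. The 18 H3K27ac libraries of the study were not analysed here.

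snoRNAs are short nuclear RNAs that guide chemical modification of ribosomal RNA, and the related scaRNAs do so for spliceosomal RNAs. In human cells most are cut from introns of longer host transcripts. In the hosts studied here the spliced exons encode little or no protein. Several of these spliced RNAs, GAS5 being the classic case, are bound by ribosomes and destroyed by nonsense-mediated decay, a translation-dependent pathway. Their promoters often start RNA at a C followed by a run of pyrimidines, as those of ribosomal protein genes do.

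RefSeq (GRCh38.p14) lists a nested snoRNA gene in 17 of the 21 hosts and only a scaRNA gene in the other 4, SNHG10, SNHG20, SNHG21 and SNHG22. The hosts hold 51 snoRNA genes together. GAS5 (chromosome 1, 173863901 to 173869045, minus strand) holds 11, and SNHG1 (chromosome 11, 62851978 to 62855885, minus strand) holds 9. SNHG5 (chromosome 6, 85677007 to 85678733, minus strand) holds SNORD50A and SNORD50B, and ZFAS1 (chromosome 20, 49278178 to 49289260, plus strand) holds 3 genes of the SNORD12 group. The start regions below, of 1 annotated transcript per gene, show how the annotated starts differ at their first base. Where these RNAs start in HMC3 cells was not tested. Hosts can have other starts, and the starts given for ZFAS1 and SNHG12 lie inside the gene spans. Each line runs 5′ to 3′ over 20 bases before and 40 bases after the start, and capitals mark the unbroken run of C and T from a start that is C.
ZFAS1: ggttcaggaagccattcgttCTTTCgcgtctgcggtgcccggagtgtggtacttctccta
SNHG5: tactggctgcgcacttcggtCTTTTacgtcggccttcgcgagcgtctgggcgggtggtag
SNHG12: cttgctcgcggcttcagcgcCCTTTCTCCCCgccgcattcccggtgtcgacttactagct
SNHG1: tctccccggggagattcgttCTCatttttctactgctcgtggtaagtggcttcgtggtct
SNHG8: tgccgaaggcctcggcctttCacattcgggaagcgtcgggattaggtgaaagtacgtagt
GAS5: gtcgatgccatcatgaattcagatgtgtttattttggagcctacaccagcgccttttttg
SNHG11: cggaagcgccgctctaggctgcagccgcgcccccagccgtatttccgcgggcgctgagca
SNHG16: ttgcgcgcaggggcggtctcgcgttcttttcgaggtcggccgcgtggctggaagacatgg
The regions lie at 20:49278622-49278681 (plus strand) for ZFAS1, 6:85678694-85678753 (minus) for SNHG5, 1:28581834-28581893 (minus) for SNHG12 and 11:62855846-62855905 (minus) for SNHG1. They lie at 4:118278742-118278801 (plus) for SNHG8, 1:173869006-173869065 (minus) for GAS5, 20:38446634-38446693 (plus) for SNHG11 and 17:76557744-76557803 (plus) for SNHG16.

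Of the 18 hosts with a promoter in the RefSeq table, 5 (27.8%) started with C and had at least 5 pyrimidines in a row from it, SNHG12, SNHG18, SNHG4, SNHG5 and ZFAS1, against 4.04% of all 27305 promoters. The annotated start of GAS5 was an A and had no such run. Motifs were searched on both strands from 250 bases before the start to 50 after it, and a match is a description, not a site. The E-box CACGTG was in 1 host (SNHG7, 5.56% of hosts against 7.43% of all promoters), CCGGAAG, the core bound by ETS factors, in 1 (SNHG20, 5.56% against 10.7%) and TATAAA in 3 (SNHG7, SNHG1 and SNHG11, 16.7% against 12%). The element TGATGNAA, bound by ATF4 with a partner, was in 0 hosts against 3.67% of promoters, and the NRF1 motif in 0 against 1.36%.

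The libraries held 582233 to 4346627 counts, which is shallow. Levels are given for each library as CPM, counts scaled to a common library size after TMM normalisation. The libraries of 50 µM PFOS after recovery stood apart: their replicates correlated at 0.849 to 0.937 (Pearson's r of log2 CPM across genes), against 0.951 or more in the other groups. Ribosomal protein genes took 2.96, 7.66 and 5.08% of their counts, against 1.22 to 2.44% in the other 15 libraries. Of the 10 microglial markers examined, AIF1 and CX3CR1 had no count, TMEM119, ITGAM and SPI1 had 1 count each over all libraries, and only CD68, a lysosomal protein of macrophages, was seen in all 18, at 15.6 to 78.5 CPM. The microglial label is therefore not borne out by its defining markers. In bulk RNA, fewer cells of a kind and less RNA per cell cannot be told apart.

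Of the 21 hosts, 15 passed the filter on low counts and were tested with 9832 other genes. GAS5, SNHG1, SNHG3, SNHG5, SNHG11, SNHG15, SNHG16, SNHG17, SNHG18 and ZFAS1 were above the cutoff of 7.44 CPM in all 18 libraries. EPB41L4A-AS1 and SNHG8 passed through the 6 libraries of 50 µM PFOS alone, so they had to be higher there to be tested. SNHG6 was above the cutoff in 6 libraries, SNHG20 in 5 and SNHG10 in 4, of which 3, 2 and 2 lay outside the 50 µM groups. Passing took 3 libraries, so SNHG10 passed only with the help of the 50 µM libraries after recovery, and SNHG20 only with that of the 50 µM groups. SNHG12, SNHG21, SNHG22, SNHG4, SNHG7 and SNHG9 were not tested, with 113, 91, 14, 153, 126 and 48 counts over all libraries. CPM are not corrected for transcript length, so levels are compared between libraries and not between genes.

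After 24 h of 50 µM PFOS, snoRNA host transcripts were higher than in vehicle cells for 7 of the 15 tested hosts and lower for 0 (edgeR quasi-likelihood test, Benjamini-Hochberg adjusted p under 0.05). Of all genes tested, 9.18% were called higher and 9.59% lower. The hosts that rose were GAS5, EPB41L4A-AS1, SNHG8, SNHG5, SNHG11, SNHG3 and SNHG17. The median log2 fold change of the 15 was 0.73, against 0.01 over all genes tested. Of the 11 hosts that would have passed the filter without the 50 µM libraries, 5 were called higher and 0 lower, with a median of 0.73. The 3 libraries of each group did not overlap for 11 of the 15 hosts, 10 higher (20.3% of all genes) and 1 lower, SNHG6 (21.1%). Among the 11 hosts that needed no 50 µM library to pass, 8 were higher without overlap and 1 lower.

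GAS5, the growth-arrest transcript whose RNA can also bind the glucocorticoid receptor, had 98.3, 125 and 90.8 CPM with 50 µM PFOS, against 42.3, 38.6 and 29.7 CPM with vehicle. Every exposed library was above every vehicle library, by more than the spread within either group. The log2 fold change was 1.53 ± 0.36 (SE, n = 3 each, edgeR adjusted p = 0.00498). SNHG11, host of SNORA60 and SNORA71E, had 37.3, 29.2 and 31.6 CPM with 50 µM PFOS, against 14.1, 10.1 and 13.8 CPM with vehicle. Its libraries also separated fully, and it had the lowest adjusted p of the hosts (log2 fold change 1.39 ± 0.25, edgeR adjusted p = 0.000527). SNHG17, the host of the SNORA71 cluster and the host with the most counts, had 171, 172 and 158 CPM with 50 µM PFOS, against 98.8, 89.0 and 113 CPM with vehicle. This was a smaller change, 0.73 ± 0.20 on the log2 scale, without overlap of the libraries (edgeR adjusted p = 0.0153).

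SNHG5 hosts the U50 snoRNAs. It had 44.5, 54.1 and 40.8 CPM with 50 µM PFOS, against 12.9, 15.1 and 19.1 CPM with vehicle, a log2 fold change of 1.48 ± 0.47 (edgeR adjusted p = 0.0306). The groups were far apart, but the call was lost when any 1 of the 6 libraries was left out, with adjusted p up to 0.109, while the log2 fold change stayed between 1.38 and 1.67. SNHG3, host of the U17 snoRNAs that act in ribosomal RNA cleavage, had 56.9, 77.9 and 51.0 CPM with 50 µM PFOS, against 41.2, 27.7 and 34.7 CPM with vehicle. Its rise of 0.86 ± 0.27 (edgeR adjusted p = 0.0272) was lost without any of 4 libraries, replicates 1 and 2 of 50 µM PFOS and replicates 2 and 3 of vehicle, with adjusted p up to 0.144.

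Of the scarcer hosts, SNHG8, which holds SNORA24, had 9.31, 8.65 and 8.67 CPM with 50 µM PFOS, against 3.53, 1.08 and 2.36 CPM with vehicle. These levels rest on 9, 8 and 17 counts with 50 µM PFOS and on 3, 3 and 8 with vehicle (log2 fold change 2.10 ± 0.56, edgeR adjusted p = 0.0112). EPB41L4A-AS1, an antisense transcript of the EPB41L4A locus that holds SNORA13, had 9.31, 9.73 and 8.67 CPM with 50 µM PFOS, against 1.18, 3.60 and 3.24 CPM with vehicle. It rose by a log2 fold change of 1.55 ± 0.43 (edgeR adjusted p = 0.0143). Both scarce hosts passed the filter only through the 50 µM libraries, so their separation from vehicle was partly set by that choice and is given as a description.

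The count of 7 fell to 3 when replicate 2 of the vehicle libraries was left out, because SNHG17, SNHG3, SNHG5 and SNHG8 were no longer called. It was 9 without the 3 libraries of 50 µM PFOS after recovery, an alternative chosen after seeing the data. The shares of all genes called in these fits are not given here. Among hosts not called, ZFAS1, a transcript beside ZNFX1, had 42.4, 58.4 and 31.6 CPM with 50 µM PFOS, against 27, 19.1 and 22.4 CPM with vehicle, without overlap (log2 fold change 0.95 ± 0.45, edgeR adjusted p = 0.149). SNHG1, the host of the U22 cluster, had 64.2, 117 and 70.9 CPM against 62.3, 46.1 and 52.1 CPM with vehicle, a difference of 0.66 ± 0.25 (edgeR adjusted p = 0.0741). SNHG16 had 39.3, 49.7 and 63.7 CPM against 45.9, 90.4 and 68.3 CPM with vehicle, the groups overlapping (−0.43 ± 0.24, edgeR adjusted p = 0.217).

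**Figure D1:**
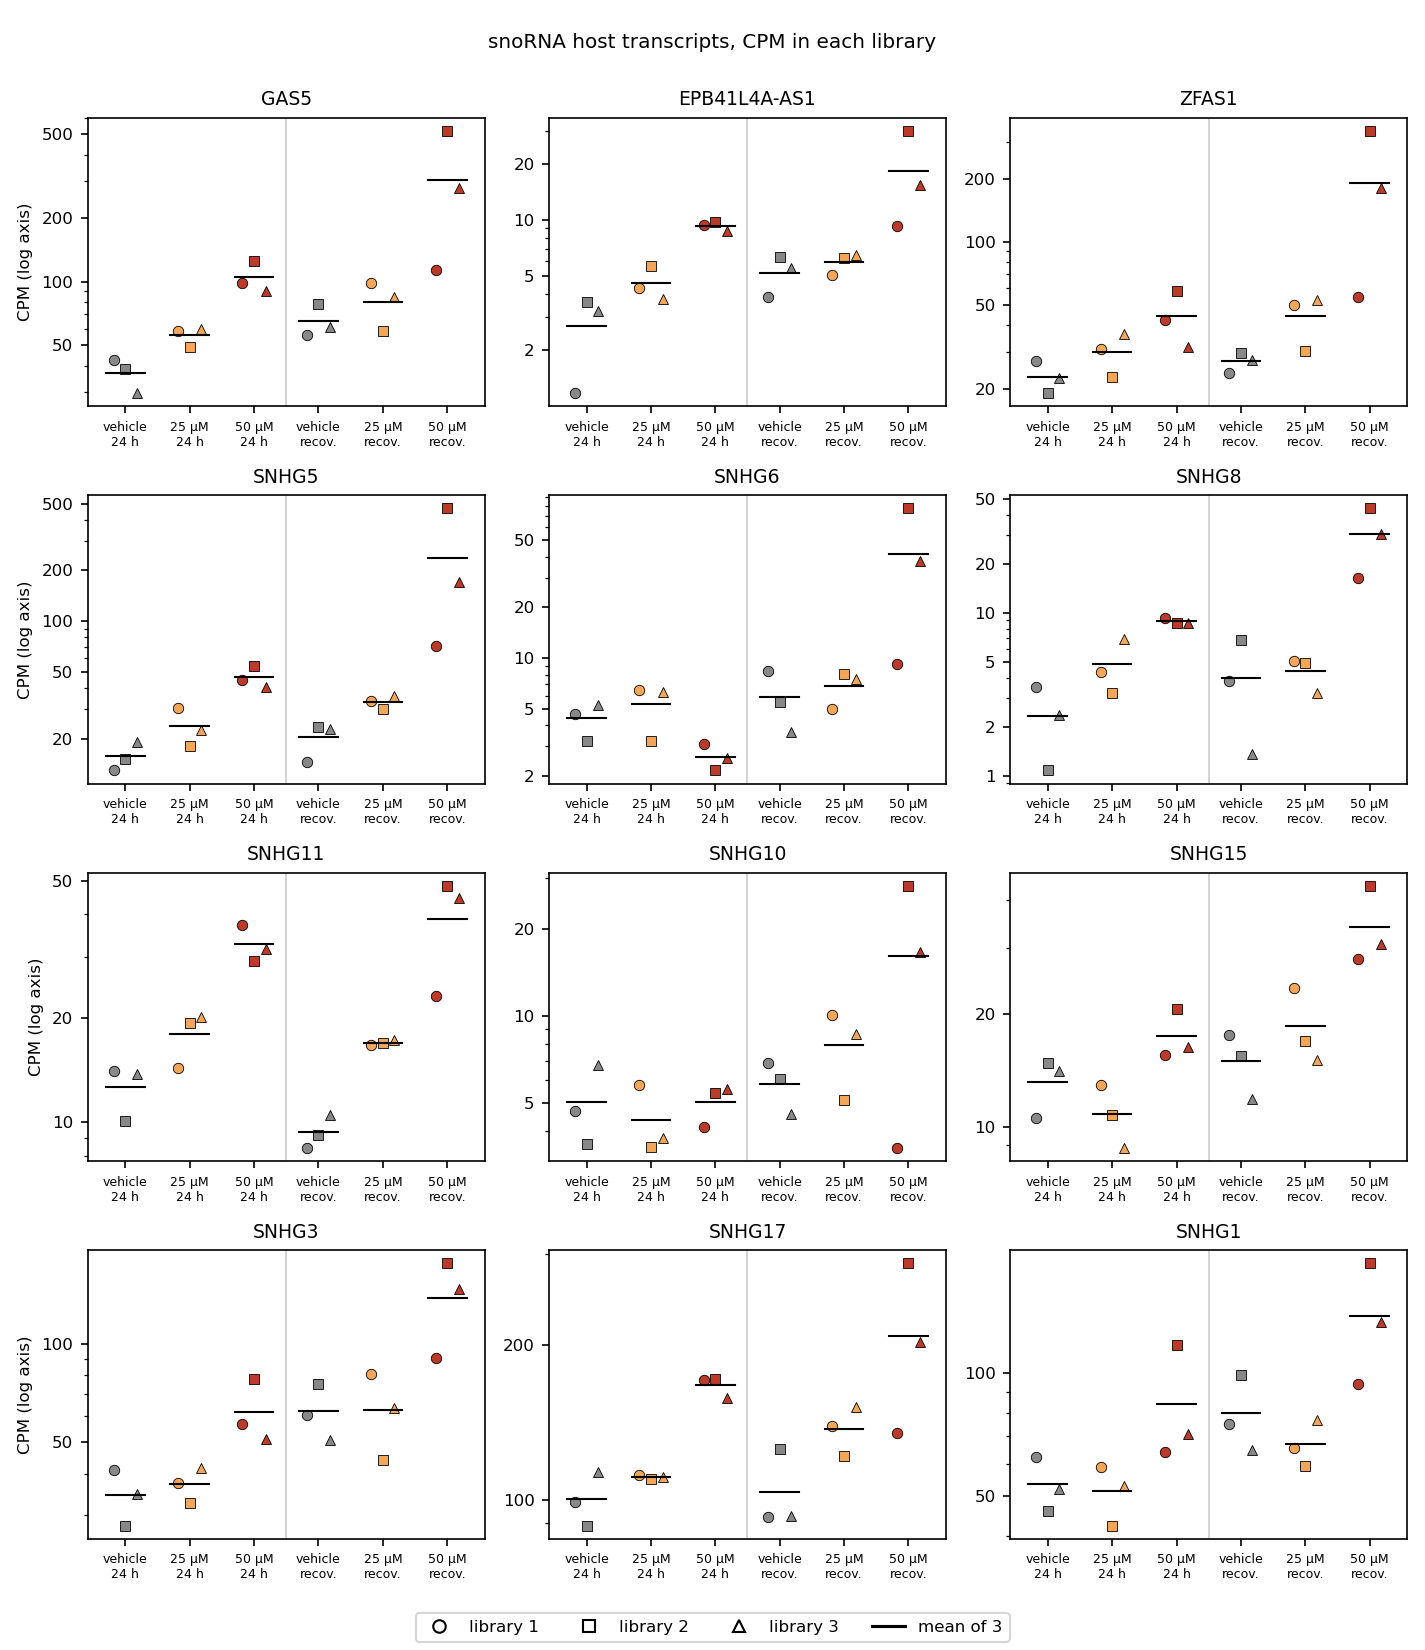
CPM (log axis) of 12 snoRNA hosts in each of 18 libraries, with vehicle, 25 µM and 50 µM PFOS at 24 h on the left and after recovery on the right; marker shapes give the library number and bars the mean of 3. In each of the 12 hosts library 2 is the highest and library 1 the lowest of 50 µM PFOS after recovery, as for GAS5 with 114, 520.2 and 278 CPM.

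With 25 µM PFOS, 0 of the 15 tested hosts passed the test at 24 h, where 0.782% of all genes were called higher and 0.457% lower, and DESeq2 also called 0. At an unadjusted p under 0.05 there were 2 hosts (8.8% of all genes), SNHG11 and SNHG18. SNHG11 had 14.4, 19.4 and 20.1 CPM with 25 µM PFOS, against 14.1, 10.1 and 13.8 CPM with vehicle (log2 fold change 0.55 ± 0.25, edgeR adjusted p = 0.534). SNHG18, host of SNORD123, had 11.5, 11.6 and 8.18 CPM with 25 µM PFOS, against 16.5, 15.9 and 18 CPM with vehicle (−0.67 ± 0.28, edgeR adjusted p = 0.463). The libraries of the groups did not overlap for 4 hosts, 3 higher (11.4% of all genes) and 1 lower (11.5%). GAS5 was among them, at 58.3, 48.8 and 59.7 CPM with 25 µM PFOS, between the vehicle and 50 µM libraries. Its 95% interval of the log2 fold change, −0.14 to 1.37, included 0 and a doubling. With the libraries of this comparison fitted alone, GAS5 was the 1 host called (edgeR adjusted p = 0.0316), where 4.3% of all genes were called.

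Set directly against each other at 24 h, 50 µM and 25 µM PFOS differed in 1 host, SNHG11, with 37.3, 29.2 and 31.6 CPM at 50 µM and 14.4, 19.4 and 20.1 CPM at 25 µM (log2 fold change 0.84 ± 0.24, edgeR adjusted p = 0.0383). Of all genes, 3.79% were called higher at 50 µM and 3.62% lower. SNHG11 lost the call with the trend on gene span removed and with no filter on low counts. It was also lost without any 1 of the 6 libraries compared, with adjusted p up to 0.138, and the number of hosts called ran between 0 and 6 over all omissions. It was 6 without replicate 1, and likewise without replicate 2, of 50 µM PFOS after recovery.

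After recovery from 50 µM PFOS, 12 of the 15 tested snoRNA hosts were called higher than in vehicle cells after recovery and 0 lower (edgeR, adjusted p under 0.05), where 17.7% of all genes were called higher and 10.7% lower. The 12 were the 7 called at 24 h, with SNHG1, SNHG6, SNHG10, SNHG15 and ZFAS1. The median log2 fold change of the 15 hosts was 1.53, against −0.05 over all genes tested. Of the 11 hosts that would have passed the filter without the 50 µM libraries, 9 were called higher and 0 lower, with a median of 1.22. For 10 of the 15 hosts the libraries did not overlap, all higher (17.2% of all genes). Among those 11 hosts it was 8, all higher. SNHG16, SNHG18 and SNHG20 were not called, with log2 fold changes of 0.26, 0.37 and 0.64, of which SNHG16 and SNHG18 were below 0 with a trend on gene span removed.

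SNHG5 had the largest log2 fold change of the 15 hosts as fitted, and ZFAS1 had it with a trend on gene span removed. SNHG5 had 70.9, 469 and 171 CPM with 50 µM PFOS after recovery, against 14.6, 23.6 and 22.9 CPM with vehicle after recovery. The exposed libraries differed several-fold among themselves, yet the lowest was well above the highest vehicle library (log2 fold change 3.51 ± 0.43, edgeR adjusted p = 2.09e-05). ZFAS1 had 54.6, 339 and 181 CPM with 50 µM PFOS, against 23.7, 29.6 and 27.5 CPM with vehicle (2.82 ± 0.41, edgeR adjusted p = 5.03e-05). GAS5 had 114, 520.2 and 278 CPM with 50 µM PFOS, against 55.9, 78.4 and 60.9 CPM with vehicle (2.22 ± 0.34, edgeR adjusted p = 8e-05). In all 3 genes library 1 was the closest to vehicle and library 2 the farthest, and no library overlapped. Without replicate 2 of 50 µM PFOS after recovery, the log2 fold changes were 2.49 for SNHG5, 2.07 for ZFAS1 and 1.55 for GAS5, and all 3 were still called.

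SNHG6, host of SNORD87, had 9.30, 77.4 and 37.5 CPM with 50 µM PFOS after recovery, against 8.43, 5.50 and 3.66 CPM with vehicle. Its library 1, with 8 counts, was barely above the vehicle libraries (log2 fold change 2.92 ± 0.48, edgeR adjusted p = 0.000151). SNHG8 had 16.3, 43.7 and 30.6 CPM with 50 µM PFOS, against 3.83, 6.81 and 1.37 CPM with vehicle, with no overlap (2.78 ± 0.42, edgeR adjusted p = 7.44e-05). Because SNHG8 passed the filter only through the 50 µM libraries, this separation is given as a description. SNHG11 had 23.3, 48.3 and 44.5 CPM with 50 µM PFOS, against 8.43, 9.17 and 10.5 CPM with vehicle (2.03 ± 0.26, edgeR adjusted p = 2.65e-05). The lowest exposed library of SNHG11 was above the highest vehicle library here too. The log2 fold change of SNHG6 was 2.02 without replicate 2 of 50 µM PFOS after recovery. That of SNHG8 ran from 2.36 to 3.70 over the omissions, with 3.70 without replicate 2 of vehicle after recovery.

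EPB41L4A-AS1 had 9.30, 30.1 and 15.3 CPM with 50 µM PFOS after recovery, against 3.83, 6.29 and 5.49 CPM with vehicle (1.77 ± 0.37, edgeR adjusted p = 0.00109). SNHG15, host of SNORA9, had 27.9, 43.7 and 30.6 CPM with 50 µM PFOS, against 17.6, 15.5 and 11.9 CPM with vehicle (1.22 ± 0.25, edgeR adjusted p = 0.000923). SNHG3 had 90.7, 176 and 147 CPM with 50 µM PFOS, against 60.5, 75.2 and 50.8 CPM with vehicle (1.14 ± 0.24, edgeR adjusted p = 0.00146). These 3 hosts were higher in every exposed library than in any vehicle library. For EPB41L4A-AS1, which passed the filter only through the 50 µM libraries, this was partly set by that choice and is given as a description. SNHG17 had 135, 288 and 203 CPM with 50 µM PFOS, against 92.7, 125 and 92.9 CPM with vehicle (1.01 ± 0.20, edgeR adjusted p = 0.000923), and its library 1 was only just above the highest vehicle library.

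The other 2 called hosts overlapped with vehicle. Of these, SNHG10 passed the filter only with the help of the 50 µM libraries after recovery, so its call is given as a description. SNHG10, the host of SCARNA13, had 3.49, 28.2 and 16.7 CPM with 50 µM PFOS, against 6.89, 6.03 and 4.58 CPM with vehicle, library 1 lying below every vehicle library (1.53 ± 0.45, edgeR adjusted p = 0.0156). SNHG1 had 94.2, 185 and 133 CPM with 50 µM PFOS, against 75.1, 98.8 and 65 CPM with vehicle (0.79 ± 0.24, edgeR adjusted p = 0.0189). Without replicate 2 of 50 µM PFOS after recovery the number of hosts called was 9, and EPB41L4A-AS1 (1.13), SNHG1 (0.49) and SNHG10 (0.74) were lost. SNHG1 was also lost without replicate 1 or 3 of the vehicle libraries and SNHG10 without replicate 3. Over all omissions the adjusted p of SNHG1 reached 0.162 and that of SNHG10 0.378. The calls of SNHG17, SNHG1 and SNHG10 were lost when the 6 libraries were fitted alone, where the highest adjusted p of SNHG17 was 0.0569. That fit called 9 hosts, where 8.95% of all genes were called in either direction. In the fit of all 18 libraries, 17.7% of all genes were called higher and 10.7% lower.

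**Figure D2:**
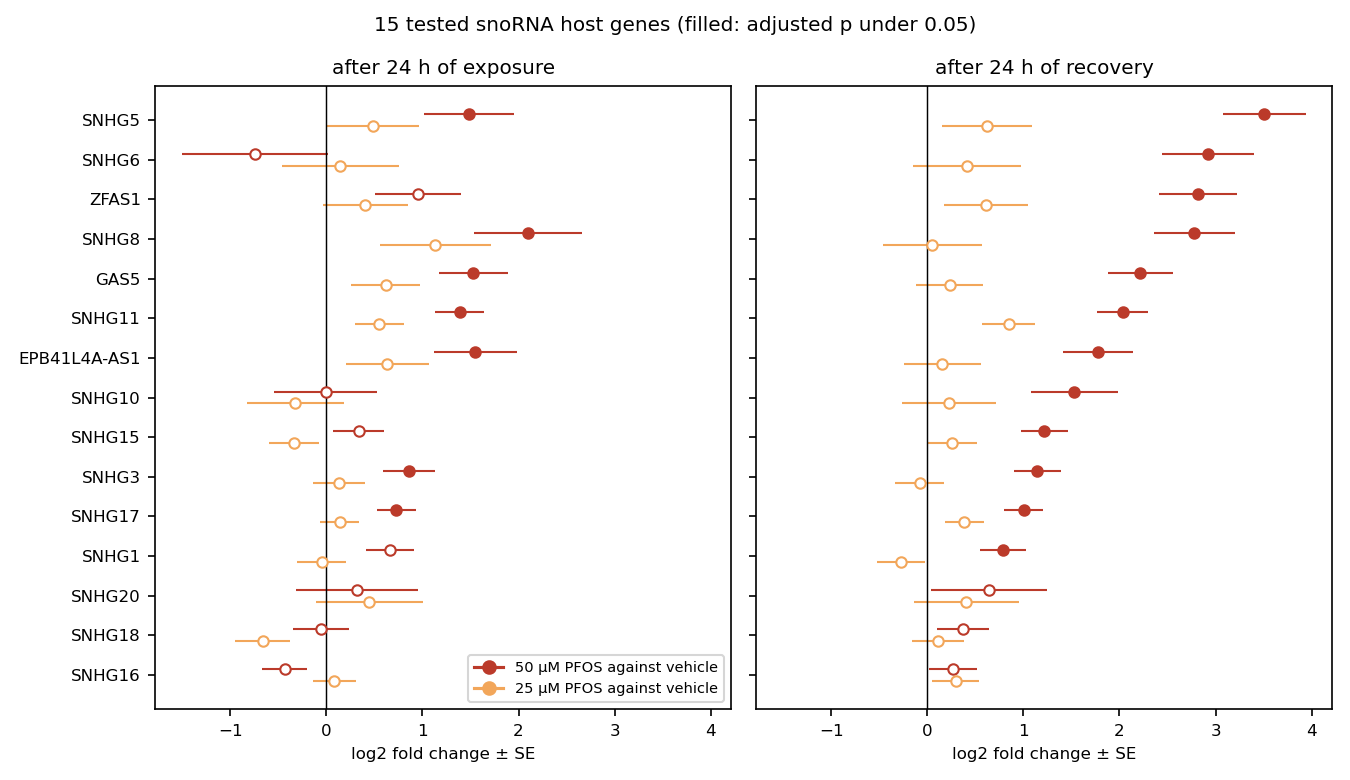
Log2 fold change against vehicle of the same time, with lines of ± 1 SE, for the 15 tested snoRNA hosts at 50 and 25 µM PFOS, at 24 h and after recovery; filled points passed the edgeR test at an adjusted p under 0.05. Filled points number 7 at 24 h and 12 after recovery, all at 50 µM, the highest being SNHG5 after recovery at 3.51.

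The difference between the 50 µM effects at the 2 times was tested as an interaction. It was positive for all 15 hosts, or for 11 with a trend on gene span removed, and passed the test for 3 of them (edgeR, adjusted p under 0.05), where 11.6% of all genes passed in that direction and 7.42% in the other. SNHG6 differed by 3.67 ± 0.89 on the log2 scale (edgeR adjusted p = 0.00806). At 24 h its level with 50 µM PFOS had been 3.10, 2.16 and 2.55 CPM, below the 4.70, 3.24 and 5.30 CPM of vehicle, on counts of 2 to 18. SNHG5 differed by 2.03 ± 0.63 (edgeR adjusted p = 0.0298) and ZFAS1 by 1.87 ± 0.60 (edgeR adjusted p = 0.0349). EPB41L4A-AS1, SNHG8, SNHG10 and SNHG20, which needed the 50 µM libraries to be tested, are among the 15 and not among the 3.

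The call of SNHG5 in this test was lost with the trend on gene span removed (1.22, edgeR adjusted p = 0.0946) and with the libraries of the test fitted alone. It was also lost in 6 of 18 omissions of a library, with adjusted p up to 0.0947. The call of ZFAS1 was lost with a replicate block, with the libraries fitted alone, and in 10 omissions, with adjusted p up to 0.113. Without replicate 2 of 50 µM PFOS after recovery the differences were 2.76 for SNHG6, 1.02 for SNHG5 and 1.12 for ZFAS1. Over all 18 omissions the number of hosts passing ran between 1 and 8. It was 1 without replicate 1 or 3 of 50 µM PFOS at 24 h, replicate 2 of 50 µM PFOS after recovery, replicate 2 or 3 of vehicle at 24 h, or replicate 1 of vehicle after recovery. It was 8 without replicate 1 of 50 µM PFOS after recovery. For GAS5 the difference was 0.69, with a 95% interval of −0.33 to 1.70.

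After recovery from 25 µM PFOS, 0 hosts passed the edgeR test, as did 0% of all genes, and DESeq2 called 0 hosts. At an unadjusted p under 0.05 there was 1 host (7.04% of all genes), SNHG11, with 16.8, 17 and 17.3 CPM after 25 µM PFOS, against 8.43, 9.17 and 10.5 CPM after vehicle. Its groups did not overlap, and the log2 fold change was 0.85 ± 0.28 (edgeR adjusted p = 0.56). SNHG5, with 33.5, 29.9 and 35.7 CPM after 25 µM PFOS against 14.6, 23.6 and 22.9 CPM after vehicle, and ZFAS1, with 50.3, 30.4 and 52.9 CPM against 23.7, 29.6 and 27.5 CPM, also did not overlap, which makes 3 hosts higher (6.89% of all genes) and 0 lower (6.92%). Their log2 fold changes were 0.62 ± 0.47 and 0.61 ± 0.44. Vehicle cells after recovery and vehicle cells at 24 h differed in 0 hosts by edgeR and 0 by DESeq2, with 4 at an unadjusted p under 0.05 (13.2% of all genes). Of all genes, 0.335% were called higher after recovery and 0.64% lower. GAS5 and SNHG3 were called with those libraries fitted alone (1.31% of all genes) and with no filter (1.25%).

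The 6 hosts under the filter could be tested only with no filter on low counts, over 17953 genes. With 50 µM PFOS at 24 h, 10 of the 21 hosts were then called higher (5.63% of all genes) and 0 lower (5.56%), the 7 above with SNHG1, ZFAS1 and SNHG7. SNHG7, host of the SNORA17 genes, had 5.17, 9.73 and 8.16 CPM, against 0, 2.16 and 2.94 CPM with vehicle (log2 fold change 1.76 ± 0.54, edgeR adjusted p = 0.0156). After recovery 15 were called higher (9.37% of all genes) and 0 lower (7.69%), the 12 above with SNHG12, SNHG21 and SNHG9. SNHG12 had 5.81, 26.4 and 9.72 CPM with 50 µM PFOS, against 4.6, 3.14 and 0.458 CPM with vehicle (2.42 ± 0.50, edgeR adjusted p = 2.87e-05). SNHG9, host of SNORA78, rested on 3, 19 and 4 counts with 50 µM PFOS and on 0, 6 and 1 with vehicle. SNHG21 had 8.14, 9.11 and 6.95 CPM with 50 µM PFOS, against 1.53, 3.14 and 0.915 CPM with vehicle. SNHG4 and SNHG22 were called in neither comparison, and SNHG22 had 0 counts in all 3 libraries of 50 µM PFOS after recovery.

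Summed over the 21 hosts, the level was 639.6, 778 and 623 CPM with 50 µM PFOS at 24 h, against 402, 392 and 421 CPM with vehicle. After recovery it was 729, 2431 and 1395 CPM with 50 µM PFOS, against 453, 561 and 443 CPM with vehicle. The share of counts in ribosomal protein genes moved with it. It was 1.97, 2.44 and 1.86% with 50 µM PFOS at 24 h, against 1.39, 1.34 and 1.47% with vehicle, and 2.96, 7.66 and 5.08% with 50 µM PFOS after recovery, against 1.55, 2.04 and 1.42% with vehicle. Host counts per 100 ribosomal protein counts were 3.24, 3.03 and 3.40 with 50 µM PFOS at 24 h, against 2.78, 2.94 and 2.82 with vehicle. After recovery they were 2.52, 2.84 and 2.61 with 50 µM PFOS, against 2.89, 2.63 and 3.16 with vehicle. The ratio was thus higher in every 50 µM library than in any vehicle library at 24 h. After recovery, where the hosts stood highest, it overlapped. With 25 µM PFOS it was 2.995, 3.49 and 2.90 at 24 h and 3.28, 2.75 and 2.80 after recovery, overlapping vehicle at both times.

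**Figure D3:**
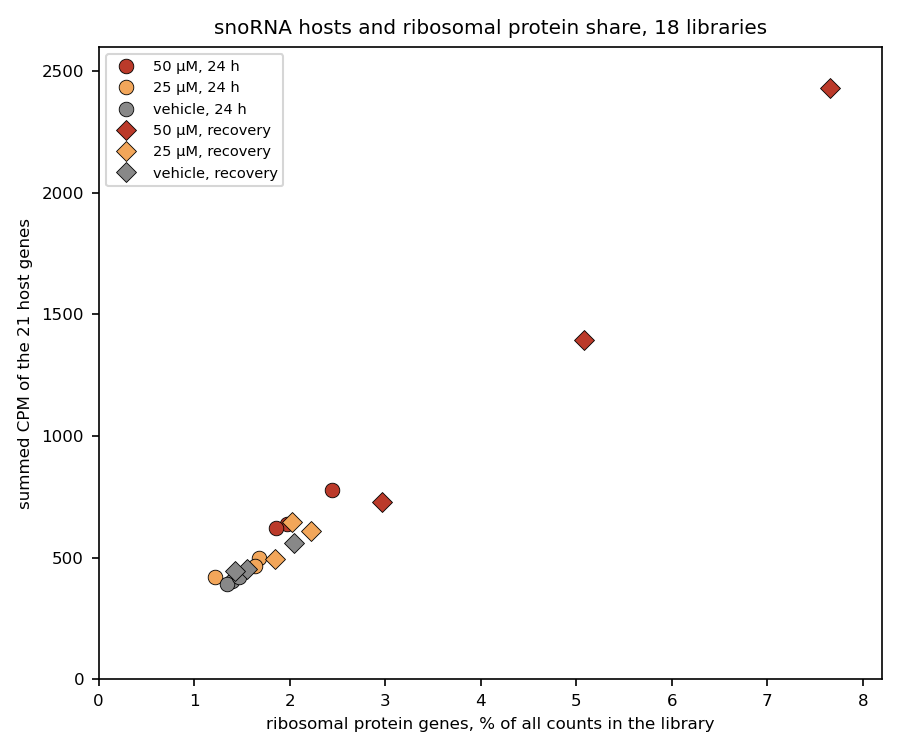
Summed CPM of the 21 snoRNA hosts against the percentage of counts in ribosomal protein genes, 1 point per library, coloured by group. The 3 libraries of 50 µM PFOS after recovery lie to the upper right, at 2.96, 7.66 and 5.08% ribosomal protein counts and 729, 2431 and 1395 CPM.

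Gene length was a second property that moved with the groups, and most hosts are short. The Spearman correlation across genes between gene span and the log2 CPM difference from vehicle of the same time was −0.28, −0.22 and −0.36 in the libraries of 50 µM PFOS after recovery, and −0.14, −0.18 and −0.15 at 24 h. In vehicle libraries, each set against the others of its own group, it ran between −0.20 and 0.22. The 24 h values lie within that range and those after recovery below it. The ranges are not fully alike, because PFOS libraries were set against the whole vehicle group. After recovery from 25 µM PFOS, where 0 hosts were called, the correlation was −0.15, −0.25 and −0.20. Genes within a library are not independent replicates. With a smooth trend on gene span removed, 6 hosts were called at 24 h, SNHG3 being lost (0.69 ± 0.24, edgeR adjusted p = 0.0541), and 8 after recovery. The share of all genes called in that fit is not given here, so these counts describe the hosts alone. The 4 lost after recovery were EPB41L4A-AS1 (0.85, adjusted p = 0.0611), SNHG1 (0.20, adjusted p = 0.514), SNHG10 (0.59, adjusted p = 0.283) and SNHG15 (0.61, adjusted p = 0.059). SNHG5 had a log2 fold change of 2.45 instead of 3.51, SNHG8 1.76 instead of 2.78 and GAS5 1.74 instead of 2.22, while ZFAS1, one of the longer hosts, had 2.68 instead of 2.82. The median of the 15 hosts after recovery was 0.85 instead of 1.53.

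**Figure D4:**
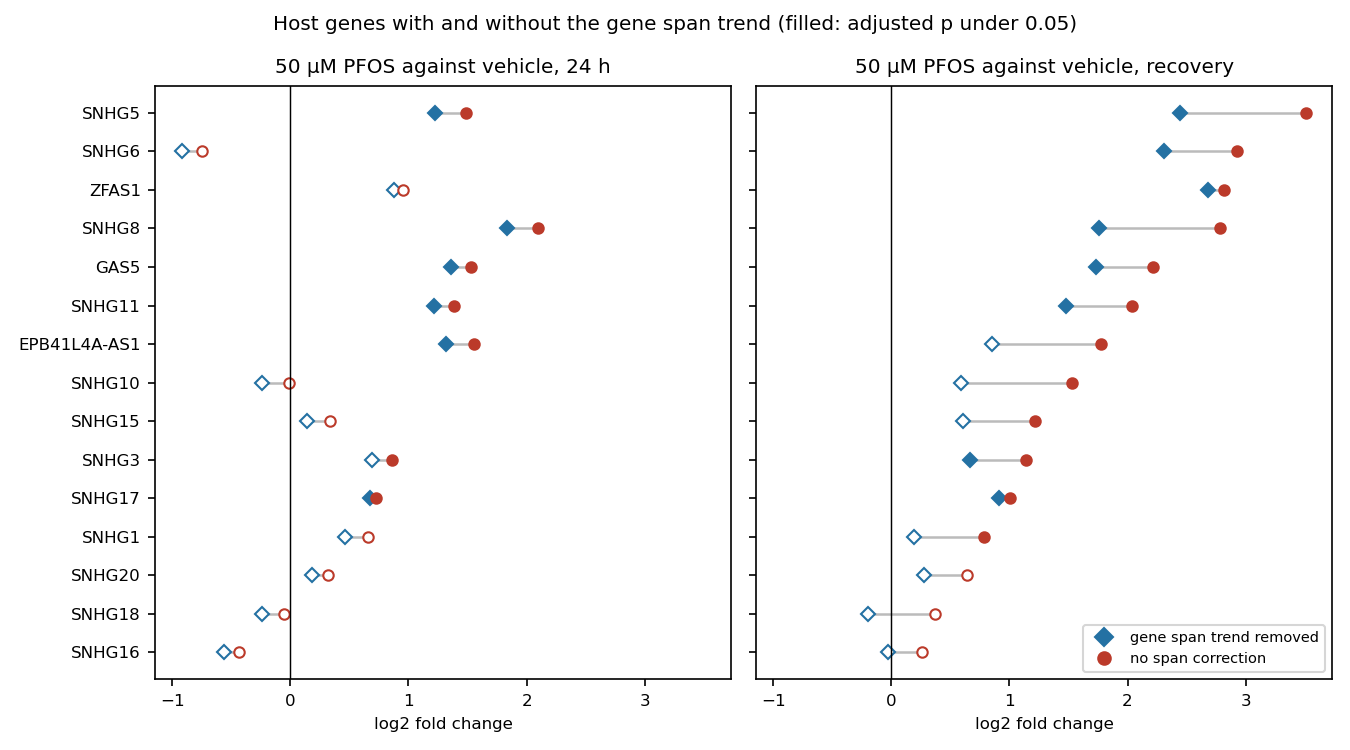
Log2 fold change of each tested host for 50 µM PFOS against vehicle, with the trend on gene span removed and as fitted, at 24 h and after recovery. After recovery SNHG5 has 2.45 with the trend removed and 3.51 as fitted, and ZFAS1 has 2.68 and 2.82.

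Some hosts are carried in the table under older symbols. C6orf48, now SNHG32, had 71.4, 74.6 and 63.7 CPM with 50 µM PFOS at 24 h, against 25.9, 25.9 and 29.2 CPM with vehicle (log2 fold change 1.35 ± 0.34, edgeR adjusted p = 0.00703). After recovery it had 97.7, 395 and 190.3 CPM with 50 µM PFOS, against 32.9, 46.6 and 34.8 CPM with vehicle (2.56 ± 0.31, edgeR adjusted p = 2.09e-05). LRRC75A-AS1, now SNHG29, and DANCR rose after recovery only by the test, with 1.86 ± 0.26 and 1.42 ± 0.25, and had 0.72 each at 24 h (edgeR adjusted p = 0.058 and 0.0679). Of the other lncRNA genes tested, 15 of 105 were called higher and 12 lower at 24 h, with a median of 0.18, against 9.18 and 9.59% of all genes. After recovery 16 were higher and 7 lower, with a median of 0.15, against 17.7 and 10.7% of all genes.

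Protein-coding hosts of snoRNAs were described beside them, from lists chosen with earlier results known. The counts of these and the following lists stand beside 9.18% of all genes called higher and 9.59% lower at 24 h, and 17.7% higher and 10.7% lower after recovery. Of 20 tested ribosomal protein genes that hold snoRNAs, 4 were called higher with 50 µM PFOS at 24 h (median log2 fold change 0.45) and all 20 after recovery (median 2.23). At 24 h RPL10 had 0.90 ± 0.22 and RPL3 0.62 ± 0.14. After recovery RPL37 had 2.81 ± 0.40, RPL30 2.71 ± 0.38 and RPL27A 2.64 ± 0.35. Over all 78 tested ribosomal protein genes, with and without snoRNAs, 8 were called higher at 24 h and 76 after recovery, with a median of 2.27 after recovery, close to the 2.23 of the snoRNA hosts among them. Of 23 other tested protein-coding hosts, 6 were higher and 0 lower at 24 h. They were led by HSPA9, a mitochondrial chaperone (0.94 ± 0.13), GNB2L1, a small-subunit ribosomal scaffold (0.67 ± 0.17), and GNL3, a nucleolar GTP-binding protein (0.59 ± 0.17). After recovery 9 were higher and 1, the splicing factor gene SF3B3, lower, with a median of 0.09. The largest were the translation factor EEF1B2 (1.94 ± 0.27), TPT1 (1.71 ± 0.26) and RPSA (1.47 ± 0.23). RPSA is itself a ribosomal protein gene and is also counted among the 78.

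Genes for the proteins that bind or assemble snoRNAs moved in both directions after recovery. Of 19 tested snoRNP genes, 3 were higher and 0 lower at 24 h, the assembly factors NAF1 (1.26 ± 0.38) and ZNHIT6 (1.05 ± 0.17) and the box C/D core protein NOP56 (0.48 ± 0.11). After recovery 7 were higher and 3 lower. The H/ACA core proteins NOP10 (2.14 ± 0.36) and NHP2 (1.56 ± 0.26) and the assembly factor ZNHIT3 (1.58 ± 0.32) were highest, while TCOF1, a nucleolar factor of ribosomal RNA synthesis, fell by 1.24. Of 23 nonsense-mediated decay factors, 1 was higher at 24 h, NBAS (0.84 ± 0.26), which is 4.35% against the 9.18% of all genes. After recovery 3 were higher, the exon junction components MAGOH (1.89 ± 0.33), MAGOHB (1.85 ± 0.33) and RBM8A (1.18 ± 0.24), and 2 lower, CASC3 and SMG9. The share higher was 13.0% against 17.7% of all genes, and the median was −0.12 at both times, so the list as a whole was called no more often than all genes.

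Of 6 protein-coding transcripts known as decay targets, 4 were called higher with 50 µM PFOS at 24 h (median 0.83, against 9.18% of all genes) and 2 after recovery (median 0.38, against 17.7%). ATF4, the stress-response transcription factor, had 197, 181 and 186 CPM with 50 µM PFOS at 24 h, against 80.0, 53.3 and 65.7 CPM with vehicle (1.53 ± 0.18, edgeR adjusted p = 2.89e-06). After recovery it had 110.4, 180.4 and 144 CPM with 50 µM PFOS, against 84.3, 112 and 95.2 CPM with vehicle (0.57 ± 0.18, edgeR adjusted p = 0.0191). UPP1 (1.44 ± 0.40), GADD45A (0.91 ± 0.20) and NAT9 (0.76 ± 0.21) were the others called at 24 h, and GADD45A (1.21 ± 0.20) the other called after recovery. With 25 µM PFOS, ATF4 at 24 h (0.84 ± 0.18, edgeR adjusted p = 0.0172) was the only call among these host, snoRNP and decay lists, which had 0 calls after recovery. No test compared the lists with the snoRNA hosts.

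**Figure D5:**
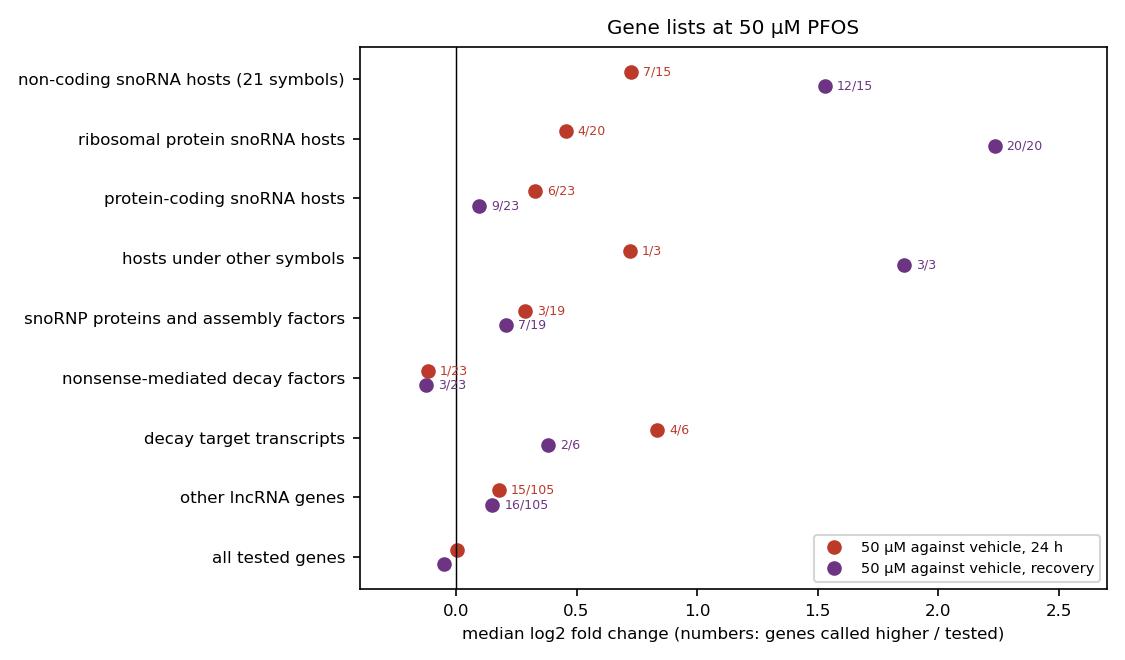
Median log2 fold change of the tested genes of each list for 50 µM PFOS against vehicle, at 24 h (red) and after recovery (purple), with the number of genes called higher over the number tested beside each point. The snoRNA hosts have medians of 0.73 and 1.53, ribosomal protein snoRNA hosts 0.45 and 2.23, and decay targets 0.83 and 0.38.

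The nested snoRNAs themselves were nearly out of reach of these libraries. The table had 43 of the 51 snoRNA genes, with 1570 counts over all libraries, against 19566 counts of the hosts. Poly(A) selection is not made to capture mature snoRNAs, and whether these counts are reads of unspliced hosts was not tested. Their sum was 40.4, 55.2 and 53.0 CPM with 50 µM PFOS at 24 h, against 48.2, 29.5 and 28.6 CPM with vehicle, which overlapped. After recovery it was 69.8, 119 and 80.6 CPM with 50 µM PFOS, against 42.1, 55.6 and 53.1 CPM with vehicle, which did not.

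Strand was not given for the counting, so reads of overlapping genes cannot be told apart. SNHG3 overlaps RCC1 in RefSeq, and RCC1 had log2 fold changes of −0.47 ± 0.19 at 24 h (edgeR adjusted p = 0.09) and −0.49 ± 0.20 after recovery (edgeR adjusted p = 0.0665), opposite in sign to SNHG3. EPB41L4A, which overlaps EPB41L4A-AS1, had 0.55 ± 0.34 and 0.36 ± 0.34, below its antisense partner at both times. GAS5 overlaps ZBTB37, and SNHG12 overlaps TRNAU1AP. TRNAU1AP was called higher after recovery (1.14 ± 0.30, edgeR adjusted p = 0.00694), in the direction of SNHG12. The start of SNHG18 lies 125 bases from that of SEMA5A on the other strand. SEMA5A was called lower after recovery (−3.12 ± 0.54, edgeR adjusted p = 0.000225), where SNHG18 had 0.37 ± 0.27.

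Some markers of other cells differed between 50 µM PFOS and vehicle as well. The 8 fibroblast and pericyte markers with any count summed to 1135 to 1268 CPM with 50 µM PFOS at 24 h, against 2884 to 3065 CPM with vehicle, and to 528 to 1789 CPM after recovery, against 2168 to 2997 CPM. COL3A1 had no count. The 8 microglial markers with any count, nearly all of it CD68, summed to 56.2 to 79.5 CPM with 50 µM PFOS at 24 h, against 22.1 to 23.1 CPM with vehicle, and to 52.8 to 65.1 CPM after recovery, against 17.4 to 29.1 CPM. With 25 µM PFOS the microglial sum overlapped vehicle at both times, at 19.4 to 34.3 CPM at 24 h and 21.8 to 31.3 CPM after recovery. The fibroblast and pericyte sum was 2337 to 2698 CPM at 24 h, below vehicle, and 1889 to 2361 CPM after recovery, overlapping it. The 3 neuron markers summed to 9.73 to 16.3 CPM with 50 µM PFOS at 24 h, against 5.88 to 6.13 CPM with vehicle, and SNAP25 was called higher (1.74 ± 0.42, edgeR adjusted p = 0.00599). After recovery they overlapped, at 4.17 to 19.1 CPM against 4.6 to 11 CPM. The 3 astrocyte markers summed to 11.9 to 19.7 CPM with 50 µM PFOS at 24 h, overlapping 7.36 to 12.9 CPM with vehicle. After recovery they summed to 10.5 to 13.9 CPM with 50 µM PFOS, against 9.15 to 9.96 CPM, without overlap. The 1 astrocyte marker tested was called at neither time. The part of these markers and of the ribosomal protein share in the changes of the snoRNA hosts was not tested.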

How the data were processed

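RNA was sequenced in 18 libraries of HMC3 cells, 3 in each of 6 groups. Per the labels' protocols, libraries were made by Smart-seq2 with poly(A) selection and read in pairs. The submitters' processing notes name Trimmomatic, STAR and DESeq2 and the builds GRCh38 and hg38; no source used here gives their versions, the counting program, the annotation or the strand setting. The authors deposited raw counts per gene symbol, in whole numbers. The members and lists were chosen with earlier results of these data known.

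Counts were tested with the edgeR quasi-likelihood test (edgeR 4.0.16, limma 3.58.1, R 4.3.3), with TMM scaling, all 18 libraries in 1 fit and no covariate. filterByExpr with a minimum count of 10 kept 9847 genes, which held 99.2% of counts. p-values were two-sided and Benjamini-Hochberg adjusted over every gene tested, and 0.05 was the threshold. The median biological coefficient of variation was 16.0%. CPM are counts divided by the TMM-scaled library size and brought to a common total; shares in percent use the plain total. Alternatives were DESeq2 1.42.0, no filter, other scaling, contrasts fitted alone, a replicate block, removal of a loess trend on gene span (span 0.3), and omission of each library. Hosts named with full values were GAS5, EPB41L4A-AS1, ZFAS1 and SNHG genes with a group mean of at least 5 CPM called in at least 1 contrast with vehicle. Hosts outside this rule were named to account for every member. Of the other lists, at most 3 called genes with the largest change were named, and TCOF1, CASC3, SMG9, SF3B3, NAT9, SNAP25 and TRNAU1AP were added after their values were seen. Start sequences and gene spans are from RefSeq GRCh38.p14.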

Additional observations from a re-analysis of the deposited data

Results flagged for a closer look

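The effect of 50 µM PFOS differed between recovery and 24 h, by the interaction test, in 3 hosts. The difference, recovery minus 24 h, was 3.67 for SNHG6, 2.03 for SNHG5 and 1.87 for ZFAS1 on the log2 scale. SNHG6 passed under every alternative fit run, with adjusted p up to 0.0276, and its adjusted p stayed under the threshold in each omission of a library. SNHG5 was lost with the gene span trend removed (1.22, adjusted p = 0.0946), with the libraries of the test fitted alone and in 6 of 18 omissions. ZFAS1 was lost with a replicate block, with the libraries fitted alone and in 10 omissions.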

How the results depend on the processing

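Over the alternatives run, 2534 log2 fold changes of hosts stayed on their side of the threshold, 62 were no longer called and 44 became called. Most of the 2534 were not called in the main fit and stayed so, so that number says little about how stable the calls were. The sign changed for 55, of which 0 had been called. Same-numbered replicates did not regularly deviate together (r of −0.34 to 0.39 over 45 pairs, 7 over 0.1). Different-numbered ones had r of −0.44 to 0.32. With 3 libraries a group this cannot show whether the numbers pair samples. With a replicate block, 7 hosts were called for 50 µM PFOS at 24 h, 12 after recovery and 2 in the test of the difference between times; ZFAS1 was lost there. That test passed 1 host with the gene span trend removed together with the replicate block and 1 with its libraries fitted alone, and 1 to 8 over omissions of a library. For 50 against 25 µM PFOS, 0 hosts were called with the span trend removed, with or without the replicate block. With the libraries of this comparison alone, 7 were called (19.8% of all genes). SNHG16 was among these 7 and was lower at 50 µM, with a log2 fold change of −0.61 to −0.49 over the alternatives. With no filter 4 were called (5.24% of all genes), SNHG11 not among them, and over omissions 0 to 6. For 25 µM PFOS at 24 h, 1 host, GAS5, was called with those libraries alone (4.3% of all genes). For vehicle after recovery against vehicle at 24 h, GAS5 and SNHG3 were called with those libraries alone (1.31% of all genes) and with no filter (1.25%). Over omissions it was 0 to 3 hosts. Omissions gave 3 to 9 hosts for 50 µM PFOS at 24 h and 9 to 12 after recovery. Counts without a share beside them describe the hosts alone, because the share of all genes called differed between fits. For 50 µM PFOS at 24 h it was 29.3% with the libraries of that comparison alone and 11.2% with no filter. After recovery these shares were 8.95% and 17.1%. The cause of these shifts was not tested. Depth limits the scarce hosts most: the 6 untested hosts had at most 153 counts in all.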
